A study of Mus musculus with 6 samples.

Results

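The genes described here are 10 that encode chemokines drawing neutrophils, their receptor, and inflammatory cytokines: Cxcl1, Cxcl2, Cxcl3, Cxcl5, Cxcr2, Il1a, Il1b, Il6, Tnf and Csf1. They were chosen by symbol from 22180 genes measured on the arrays, and each was represented by 1 probe set. RNA was measured in mammary tumours of 3 mice that lack serglycin (SG-/-) and 3 mice that are heterozygous for it (SG+/-), with 1 array per tumour. All 6 mice carry PyMT, a transgene for the middle T oncoprotein of polyoma virus that gives rise to mammary tumours, so the SG+/- tumours keep 1 serglycin allele and are not wild type. For strain, age and the promoter of the transgene, nothing is stated in the labels used here. Values are log2 expression values that the authors normalised with the robust multi-array average (RMA), and all differences are SG-/- minus SG+/- on that scale. In bulk tumour RNA, fewer cells of a type and less RNA per cell cannot be told apart.

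Serglycin is the proteoglycan of secretory granules in blood cells, where its sugar chains hold charged proteins for storage and release. Cxcl1, Cxcl2, Cxcl3 and Cxcl5 encode chemokines that act through the receptor CXCR2 on neutrophils and call these cells from blood into tissue. Il1a, Il1b and Tnf encode alarm cytokines that switch on NF-kB, a transcription factor that in turn raises these chemokines and Il6 in many cell types. Csf1 encodes the growth factor on which most tissue macrophages depend, and in PyMT tumours it is known for its role in macrophage recruitment.

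The promoters are shown because those of Cxcl1, Cxcl2 and Cxcl3 share a match to the consensus sequence for NF-kB. Of the 10 genes, 9 had an entry in the RefSeq promoter table (build GRCm38.p6), with Cxcl5 the gene without one. Each window runs over 300 bases, 250 before the transcription start and 50 after it, and the last 150 bases are printed here, 5′ to 3′ on the gene's strand. Capitals mark matches to the NF-kB consensus and to TATAAA. The windows lie at chr5:90891145-90891294 (plus strand) for Cxcl1, chr5:90903799-90903948 (plus strand) for Cxcl2, chr5:90786001-90786150 (plus strand) for Cxcl3, chr5:30013014-30013163 (plus strand) for Il6 and chr2:129371090-129371239 (minus strand) for Il1b.
Cxcl1: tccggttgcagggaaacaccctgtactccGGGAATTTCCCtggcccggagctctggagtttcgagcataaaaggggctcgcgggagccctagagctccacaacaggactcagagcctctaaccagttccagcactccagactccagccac
Cxcl2: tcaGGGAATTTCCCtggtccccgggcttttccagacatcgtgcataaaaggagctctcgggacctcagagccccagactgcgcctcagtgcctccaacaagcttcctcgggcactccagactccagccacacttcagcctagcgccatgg
Cxcl3: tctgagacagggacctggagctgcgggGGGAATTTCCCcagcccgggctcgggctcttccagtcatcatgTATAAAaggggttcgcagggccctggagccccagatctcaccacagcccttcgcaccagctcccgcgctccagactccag
Il6: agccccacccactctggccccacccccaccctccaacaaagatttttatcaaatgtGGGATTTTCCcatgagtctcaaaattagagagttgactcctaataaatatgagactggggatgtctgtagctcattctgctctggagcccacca
Il1b: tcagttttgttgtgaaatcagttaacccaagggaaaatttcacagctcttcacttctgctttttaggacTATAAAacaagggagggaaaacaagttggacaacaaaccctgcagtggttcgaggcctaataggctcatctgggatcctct
Cxcl1, Cxcl2 and Cxcl3 held the same run, GGGAATTTCCC, which reads as 2 overlapping NF-kB matches. The run was picked from these 3 windows of related genes, so its rarity is a description only. It occurs in 14 of 32851 promoter windows (0.0426%), these 3 among them. Its first base stood at -71 from the start site in Cxcl1, -97 in Cxcl2 and -73 in Cxcl3. Il6 held a match at -44 and Csf1 one at -154, so that 5 of the 9 windows matched the NF-kB consensus on either strand, against 4.51% of all windows. No match was present in these windows of Il1a, Il1b, Tnf or Cxcr2, which says only that these letters are not in this stretch. The AP-1 sequence TGANTCA, also searched on both strands, was in 2 of the 9 windows (Il1a and Il6), against 7.81% of all windows. TATAAA, searched on the gene's strand, was in 4 (Cxcl3, Il1a, Il1b and Tnf), against 8.32%. None of the 3 motifs overlapped another motif within these 9 windows. A match is a description of the sequence and not a measurement of binding.

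Before the comparison, the labels and arrays were checked. Srgn, the targeted gene, stood between 4.89 and 5.07 in SG-/- tumours and between 6.35 and 6.76 in SG+/- tumours. Its difference of -1.52 ranked 1 of 22180 genes by limma p but did not pass over all genes (limma adjusted p = 0.467). A gene that does not pass here can therefore still differ. Epithelial markers were bright in every array, with Epcam, an adhesion molecule of epithelium, between 12.09 and 12.14 in SG-/- tumours and between 12.12 and 12.24 in SG+/- tumours. Arrays differed in the mean level of 1428 olfactory, vomeronasal and taste receptor genes taken as silent in this tissue, which was 4.58, 5.13 and 5.86 in the SG-/- tumours (replicates 1 to 3) and 4.58, 5.62 and 5.49 in the SG+/- tumours (replicates 1 to 3). A gene is called dim here where its mean over the 6 arrays lies under 6.09, the 40th percentile of all probe sets. Of the 10 genes, 7 lay above this level, and Cxcl3, Cxcl5 and Il6 lay under it. Srgn, with a mean of 5.76, lay under it too. Of the 1428 receptor genes, 326 lay above it, so this level does not separate silent genes from expressed ones. Il1a, Cxcl2 and Cxcl1 lay little above it, with means of 6.13, 6.42 and 6.50.

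None of the 10 genes passed the test over all genes in either direction (limma adjusted p = 1.00 for each, Benjamini-Hochberg over 22180 genes), and 0.0% of all genes did. At an unadjusted limma p of 0.05 the count was 0 of 10, against 2.11% of all genes. That count was 4 with limma array weights (Il1a, Il1b, Tnf and Csf1; 11.6% of all genes), 3 without SG-/- replicate 3 (Il1b, Tnf and Csf1; 5.41%) and 1 without SG+/- replicate 2 (Il1a; 1.66%). It was also 1, Il1b, without SG-/- replicate 2 (2.03%), with dim genes left out (3.05%), with quantile normalization applied again (3.13%), with arrays centred on their brighter genes (2.7%) and with each array's mean of the silent receptor genes in the model (4.68%). The array weights were 0.957, 4.95 and 0.197 for SG-/- replicates 1 to 3 and 0.73, 0.737 and 1.99 for SG+/- replicates 1 to 3. That setting thus rested mostly on SG-/- replicate 2 within its genotype. The mean was higher in SG-/- tumours in 7 of the 10, where 46.3% of all genes had a higher mean, and lower in 3, and the median difference was 0.14, beside -0.01 over all genes. The genotypes did not overlap in 1 of the 10, Il1b, where 6.03% of all genes did not overlap. That count was 4 without SG-/- replicate 3 (Il1a, Il1b, Tnf and Csf1), where the share of all genes was 21.6%, 3 without SG+/- replicate 2 (Cxcl1, Il1a and Il1b; 12.9% of all genes) and 2 without SG-/- replicate 1 (Il1b and Il6; 12.5% of all genes). The median difference was -0.01 without SG-/- replicate 3. With 3 tumours against 3, an exact two-sided permutation test cannot go below 0.1. The interleukin-1 genes, Tnf and Csf1 had the largest positive differences, and the chemokines lay on both sides of 0.

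**Figure D1:**
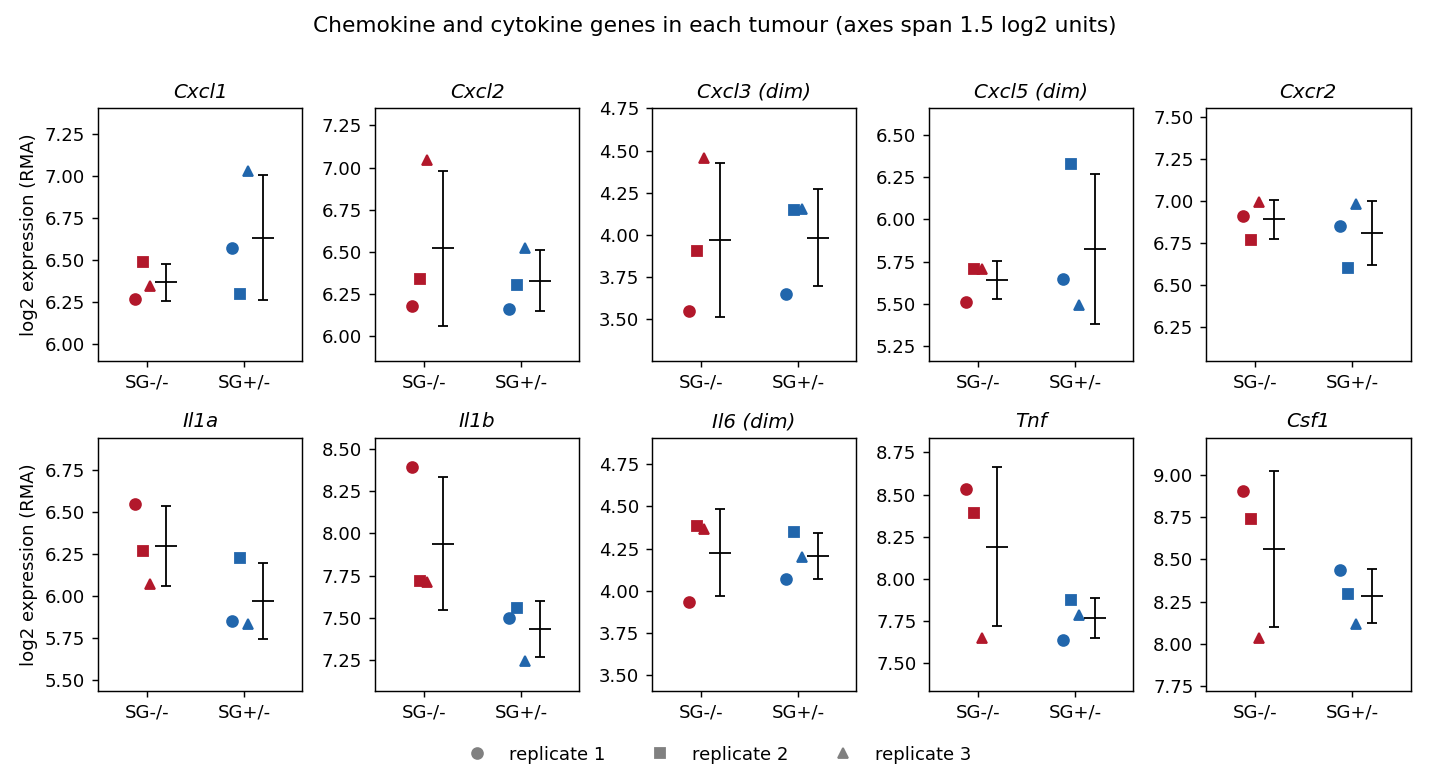
Log2 expression (RMA) of each of the 10 genes in each tumour, with SG-/- tumours in red and SG+/- tumours in blue, marker shapes for replicates 1 to 3, and the black bar and whiskers for the mean and SD (n = 3 each). Il1b is the 1 gene with all SG-/- tumours above all SG+/- tumours, and dim marks Cxcl3, Cxcl5 and Il6, whose mean lies under 6.09.

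Il1b encodes interleukin-1 beta, which is made as a precursor and cut by caspase 1. Its level was 8.39, 7.72 and 7.71 in the SG-/- tumours (replicates 1 to 3), against 7.50, 7.55 and 7.24 in the SG+/- tumours (replicates 1 to 3). All SG-/- tumours thus lay above all SG+/- tumours, with 1 tumour, SG-/- replicate 1, well above the rest. The mean was 7.94 ± 0.39 (SD) in 3 SG-/- tumours and 7.43 ± 0.17 in 3 SG+/- tumours. The difference of 0.51 had a standard error of 0.22 and an interval (95% confidence) of -0.0024 to 1.02, and corresponds to 1.42-fold. Its unadjusted limma p was 0.0508, rank 477 of 22180 genes, and the exact two-sided permutation p was 0.1. Without SG-/- replicate 1 the difference was 0.28.

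Il1a encodes interleukin-1 alpha, which binds the same receptor as interleukin-1 beta and can act as an alarm signal from dying cells. Its level was 6.54, 6.27 and 6.07 in the SG-/- tumours (replicates 1 to 3), against 5.85, 6.23 and 5.83 in the SG+/- tumours (replicates 1 to 3). SG+/- replicate 2 lay between SG-/- replicates 2 and 3, so the genotypes overlapped by that tumour. The difference of 0.32 had a standard error of 0.18 and an interval (95% confidence) of -0.10 to 0.75 (exact two-sided permutation p = 0.2). Without SG-/- replicate 1 the difference was 0.20.

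Tnf encodes tumour necrosis factor, a cytokine released mainly by macrophages and T cells. Its level was 8.53, 8.39 and 7.65 in the SG-/- tumours (replicates 1 to 3), against 7.64, 7.87 and 7.79 in the SG+/- tumours (replicates 1 to 3). SG-/- replicates 1 and 2 stood above every SG+/- tumour, while SG-/- replicate 3 lay at the lower end of the SG+/- range. The difference of 0.42 had a standard error of 0.24 and an interval (95% confidence) of -0.14 to 0.99 (exact two-sided permutation p = 0.3). Without SG-/- replicate 3 it was 0.70 with an unadjusted limma p of 0.00179, which did not pass over all genes (adjusted p = 0.654), and without SG-/- replicate 1 it was 0.25.

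Csf1, the macrophage growth factor gene, also had its highest values in SG-/- replicates 1 and 2. Its level was 8.91, 8.74 and 8.03 in the SG-/- tumours (replicates 1 to 3), against 8.44, 8.29 and 8.12 in the SG+/- tumours (replicates 1 to 3). SG-/- replicate 3 was the lowest of the 6 tumours, below every SG+/- tumour. The difference of 0.28 had a standard error of 0.24 and an interval (95% confidence) of -0.29 to 0.85 (exact two-sided permutation p = 0.4). It was 0.54 without SG-/- replicate 3, with an unadjusted limma p of 0.00943 and an adjusted p of 0.686, and 0.10 without SG-/- replicate 1.

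Il6 encodes interleukin-6, a cytokine of the acute phase response. Its level was 3.93, 4.38 and 4.36 in the SG-/- tumours (replicates 1 to 3), against 4.07, 4.35 and 4.20 in the SG+/- tumours (replicates 1 to 3). The genotypes overlapped throughout, and every value lay under the dim level of 6.09. The difference was 0.02 with an interval (95% confidence) of -0.38 to 0.42.

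Markers of macrophages were on average highest in SG-/- replicates 1 and 2, as Tnf and Csf1 were. Il1b stood out in SG-/- replicate 1 alone, with 7.72 and 7.71 in SG-/- replicates 2 and 3. All 12 listed macrophage markers were measured, 12 of 12 lay above the dim level and 12 had a higher mean in SG-/- tumours, by a median of 0.34. This median was 0.14 without SG-/- replicate 1 and up to 0.49 with another mouse left out. The genotypes did not overlap in 3 of the 12, against 6.03% of all genes. Of these markers, 0 passed over all genes and 2 (Adgre1 and Fcgr1, Fcgr1 being an Fc receptor gene) had an unadjusted limma p under 0.05, against 2.11% of all genes. Their mean level was 9.64, 9.15 and 8.80 in the SG-/- tumours (replicates 1 to 3), against 8.87, 8.86 and 8.75 in the SG+/- tumours (replicates 1 to 3). Adgre1, which encodes the macrophage protein F4/80, was 9.32, 8.84 and 8.49 in SG-/- tumours against 8.34, 8.46 and 8.25 in SG+/- tumours. Fibroblast markers were also highest in SG-/- replicate 1, with a mean level of 10.76, 9.47 and 9.79 in the SG-/- tumours (replicates 1 to 3) against 9.55, 9.65 and 9.14 in the SG+/- tumours (replicates 1 to 3). Col1a1, a chain of type I collagen, was 11.92, 10.25 and 11.12 in SG-/- tumours against 10.72, 10.92 and 10.49 in SG+/- tumours. Without single mice the fibroblast median difference of 0.55 ran from 0.17 to 0.92, and 1 of 6 genes did not overlap. For T cell markers the median was 0.40 (0.30 to 0.50 with a mouse left out), with 4 of 5 genes not overlapping, against 6.03% of all genes, and Cd3d, part of the T cell receptor complex, differed by 0.30. Endothelial markers had a median of 0.38 (0.29 to 0.47), with 5 of 6 genes not overlapping, and Pecam1 differed by 0.35. They too were on average highest in SG-/- replicates 1 and 2. Their mean level was 8.239, 8.045 and 7.839 in the SG-/- tumours (replicates 1 to 3), against 7.668, 7.536 and 7.743 in the SG+/- tumours (replicates 1 to 3). Mast cell markers had a median of 0.22 (0.082 to 0.36), with 1 of 7 not overlapping and 0 of 7 above the dim level, and Cpa3 differed by 0.69. B cell markers had a median of 0.31 (0.018 to 0.59), with 0 of 4 not overlapping, and adipocyte markers 0.36 (0.15 to 0.40), with 1 of 5 (Adipoq 0.21). Mammary epithelial markers had a median of 0.05 (0.012 to 0.088), with 1 of 9, and basal and skin keratinocyte markers 0.08 (-0.083 to 0.12), with 0 of 5. Salivary gland markers split into 5 higher and 4 lower, with 4 of 9 not overlapping, and their median of 0.42 ran from -0.25 to 1.83. Among them Bpifa2, a salivary secretory protein, was 13.54, 7.26 and 13.64 in SG-/- tumours against 6.18, 5.98 and 6.48 in SG+/- tumours, a difference of 5.27, and SG-/- replicates 1 and 3 stood far above the other 4 tumours. The unadjusted limma p was under 0.05 in 3 of 5 T cell, 3 of 6 endothelial and 3 of 9 salivary gland markers. It was so in 1 of 6 fibroblast, 1 of 7 mast cell, 1 of 9 mammary epithelial and 1 of 13 neutrophil markers. In the B cell, adipocyte and keratinocyte lists the count was 0. The part of any of these marker lists in the cytokine values was not tested.

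**Figure D2:**
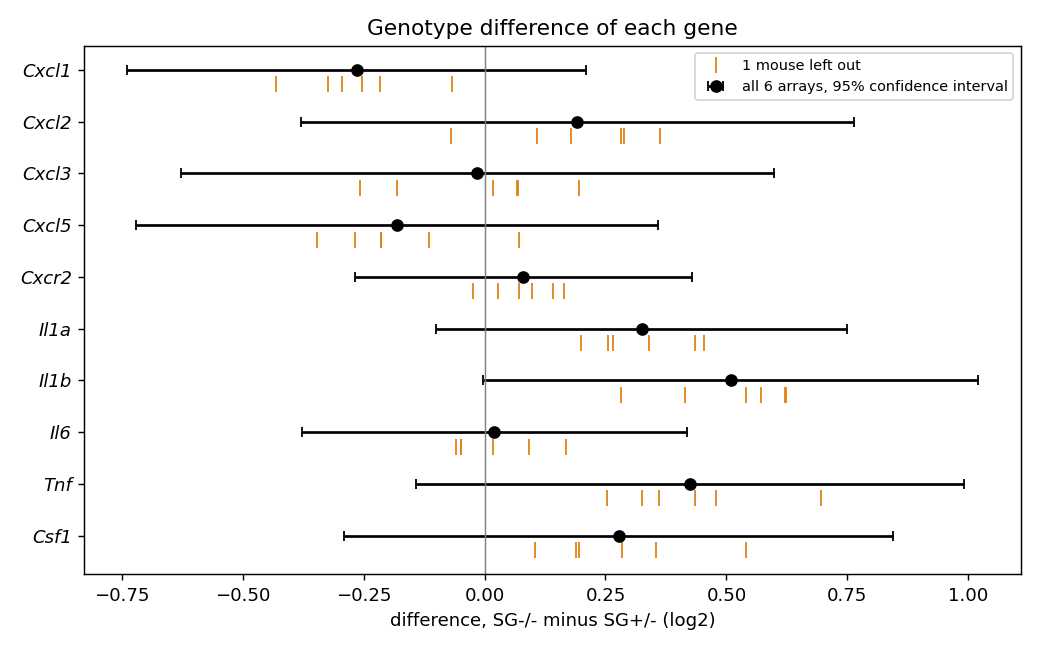
Difference of each gene, SG-/- minus SG+/-, in log2 units, with its 95% confidence interval from limma (black, 3 tumours per genotype) and the difference with each mouse left out in turn (orange ticks). Every interval includes 0, and the ticks of Il1a, Il1b, Tnf and Csf1 all lie above 0 while those of Cxcl1 all lie below it.

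Among the chemokine genes, Cxcl1 had the largest negative difference. It encodes the mouse chemokine KC, made by epithelium and stroma. Its level was 6.27, 6.49 and 6.35 in the SG-/- tumours (replicates 1 to 3), against 6.57, 6.30 and 7.03 in the SG+/- tumours (replicates 1 to 3). SG+/- replicate 3 stood apart as the highest tumour, and SG+/- replicate 2 lay within the SG-/- range. The mean was 6.37 ± 0.11 (SD) in 3 SG-/- tumours and 6.63 ± 0.37 in 3 SG+/- tumours. The difference of -0.26 had a standard error of 0.20 and an interval (95% confidence) of -0.74 to 0.21 (exact two-sided permutation p = 0.3). Leaving out SG+/- replicate 3 gave -0.07, and leaving out SG+/- replicate 2 gave -0.43.

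Cxcl2, which encodes macrophage inflammatory protein 2, lies close to Cxcl1 on chromosome 5 but took another order over the tumours. Its level was 6.18, 6.34 and 7.04 in the SG-/- tumours (replicates 1 to 3), against 6.16, 6.30 and 6.52 in the SG+/- tumours (replicates 1 to 3). The highest tumour was SG-/- replicate 3, and the other SG-/- tumours lay within the SG+/- range. The difference of 0.19 had a standard error of 0.24 and an interval (95% confidence) of -0.38 to 0.76 (exact two-sided permutation p = 0.6), and -0.07 without SG-/- replicate 3.

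Cxcl3, the third gene with the shared promoter run, was dim. Its level was 3.55, 3.91 and 4.45 in the SG-/- tumours (replicates 1 to 3), against 3.65, 4.15 and 4.15 in the SG+/- tumours (replicates 1 to 3). The genotypes overlapped, and the difference was -0.02 with an interval (95% confidence) of -0.63 to 0.60. Its lowest arrays, replicate 1 of each genotype, were also those with the lowest mean of the silent receptor genes, and SG-/- replicate 3 was the highest in both measures. With that receptor mean added as a covariate the Cxcl3 difference was 0.01 and its standard error 0.12, against 0.26 without the covariate. The covariate also lowered the standard error of other members, among them Cxcl2 (0.24 to 0.16) and Csf1 (0.24 to 0.15). Cxcl2 too was lowest in replicate 1 of each genotype and highest in SG-/- replicate 3, while Csf1 was lowest in SG-/- replicate 3. The part of array-wide differences in these orders was not tested.

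Cxcl5, known in the mouse as LIX, was dim as well. Its level was 5.51, 5.71 and 5.71 in the SG-/- tumours (replicates 1 to 3), against 5.65, 6.33 and 5.49 in the SG+/- tumours (replicates 1 to 3). SG+/- replicate 2 stood above the other 5 tumours, whose values overlapped. The difference was -0.18 with an interval (95% confidence) of -0.72 to 0.36, and 0.07 without SG+/- replicate 2. Cxcl1, Cxcl2 and Cxcl3 are close relatives, and whether their probes separate them was not tested here, so a signal could be shared between them.

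Cxcr2, the receptor through which these chemokines act, varied least of the 10 genes. Its level was 6.91, 6.77 and 7.00 in the SG-/- tumours (replicates 1 to 3), against 6.85, 6.60 and 6.98 in the SG+/- tumours (replicates 1 to 3). The genotypes overlapped, and the range over the 6 tumours was 0.39. The difference was 0.08 with an interval (95% confidence) of -0.27 to 0.43, which spans a fold from 0.83 to 1.35. Neutrophil markers were mostly dim: 13 of 14 were measured and 9 of the 13 lay under the dim level, among them Ly6g and S100a8. Their mean level was 6.20, 6.13 and 6.44 in the SG-/- tumours (replicates 1 to 3), against 6.29, 6.43 and 6.18 in the SG+/- tumours (replicates 1 to 3). Of these markers, 7 were higher and 6 lower in SG-/- tumours, the median difference was 0.06, and 0 passed over all genes. With a mouse left out the median ran from -0.11 to 0.13. The genotypes did not overlap in 1 of the 13 (Cd177, named after its values were seen), a share near the 6.03% of all genes. S100a8, a subunit of the neutrophil protein calprotectin, was 6.16, 5.78 and 5.83 in SG-/- tumours against 6.28, 6.47 and 5.83 in SG+/- tumours.

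**Figure D3:**
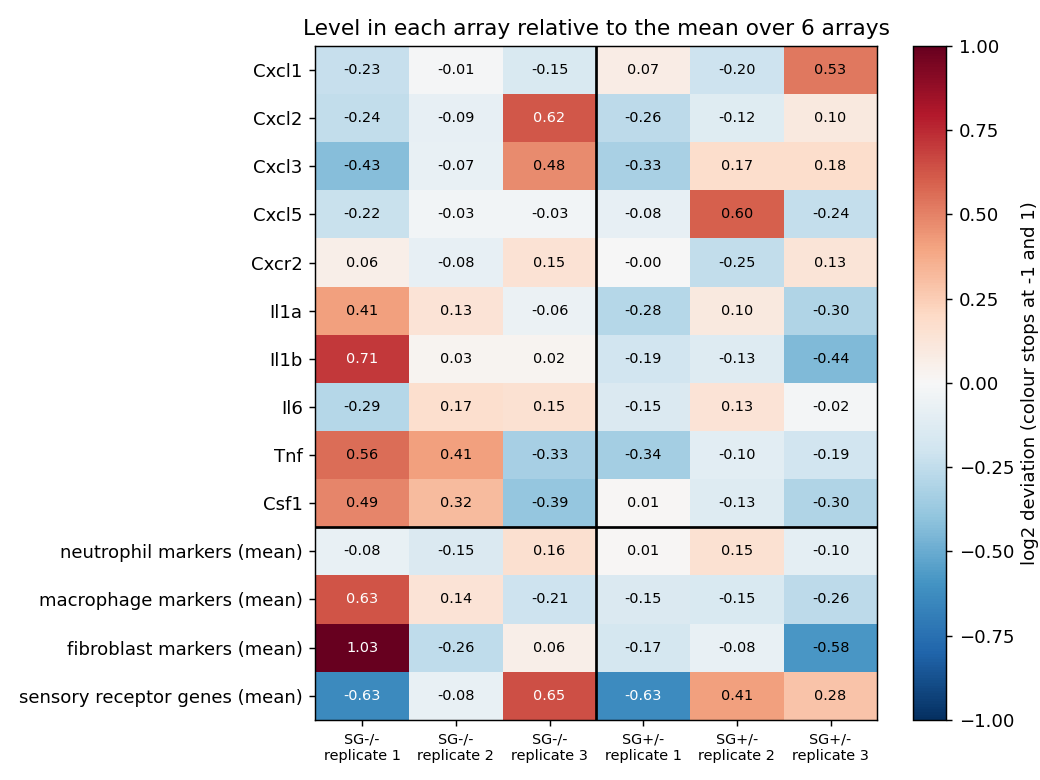
Deviation of each gene (rows) in each array (columns, SG-/- left of the line and SG+/- right of it) from its mean over the 6 arrays, in log2 units, with mean levels of marker lists and of the sensory receptor genes below the line. SG-/- replicate 1 is red for Il1a, Il1b, Tnf, Csf1 and the macrophage and fibroblast markers and blue for the receptor genes, and SG-/- replicate 3 is red for Cxcl2, Cxcl3 and the receptor genes.

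The 10 genes thus fell into different orders over the tumours. SG-/- replicate 1 was the highest of 6 for Il1a, Il1b, Tnf and Csf1 and the lowest for Cxcl1, Cxcl3 and Il6. SG-/- replicate 3 was the highest for Cxcl2, Cxcl3 and Cxcr2 and the lowest for Csf1. The SD between tumours of 1 genotype had a median of 0.31 over the 10 genes, beside 0.21 over all genes. In Il1b, Tnf and Csf1 the SG-/- tumours were the more spread, with SDs of 0.39, 0.47 and 0.46 against 0.17, 0.12 and 0.16 in SG+/- tumours. In Cxcl1 and Cxcl5 they were the less spread, with SDs of 0.11 and 0.11 against 0.37 and 0.44 in SG+/- tumours. The difference in spread was not tested.

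The receptors of the cytokines showed no call. Il1r1, the signalling receptor of interleukin-1, was 8.43, 7.83 and 7.46 in the SG-/- tumours (replicates 1 to 3), against 7.56, 8.19 and 7.22 in the SG+/- tumours (replicates 1 to 3), and the genotypes overlapped. Il1r2, the decoy receptor, differed by 0.07, Il6ra by -0.19, Il6st, the shared signal chain of the interleukin-6 family, by 0.08, and Tnfrsf1a, the widely expressed receptor of tumour necrosis factor, by 0.07. Tnfrsf1b, its second receptor, was 8.41, 8.10 and 7.93 in SG-/- tumours against 8.43, 9.43 and 7.94 in SG+/- tumours, with SG+/- replicate 2 far above the other 5. Csf1r, the receptor of the Csf1 product and itself a macrophage marker, was 9.68, 9.18 and 8.82 in SG-/- tumours against 8.98, 8.67 and 8.87 in SG+/- tumours, a difference of 0.39 with a standard error of 0.23. SG-/- replicates 1 and 2 were again the highest for Csf1r and SG-/- replicate 3 lay within the SG+/- range. Cxcr1 differed by -0.02.

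Beyond the 10 genes, 6 pathway lists held 66 genes, of which 62 were measured. In these, 0 passed over all genes in either direction and 0 had an unadjusted limma p under 0.05, against 2.11% of all genes. By mean, 36 were higher and 26 lower in SG-/- tumours, the median difference was 0.02, and the genotypes did not overlap in 4 (Il18, Il33, Stat3 and Bcl3), where 6.03% of all genes did not.

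In the interleukin-1 pathway 8 of 13 genes were higher and 5 lower. Il33, an alarm cytokine of the interleukin-1 family kept in the nuclei of stromal and barrier cells, was 9.98, 8.56 and 8.34 in the SG-/- tumours (replicates 1 to 3), against 7.85, 8.26 and 7.91 in the SG+/- tumours (replicates 1 to 3). The genotypes did not overlap, and SG-/- replicate 1 stood far above the rest, as it did for the fibroblast markers. Il33 differed by 0.96, standard error 0.41, and limma gave an adjusted p of 1.00. Il18, which like interleukin-1 beta is cut by caspase 1, was 7.00, 6.88 and 6.77 in SG-/- tumours against 6.65, 6.50 and 6.65 in SG+/- tumours, a difference of 0.28 with a standard error of 0.13. Il1rn, the antagonist of the interleukin-1 receptor, had the opposite sign, with a difference of -0.23 and a standard error of 0.15.

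In the interleukin-6 pathway 6 of 11 genes were higher and 5 lower. Stat3, the transcription factor downstream of interleukin-6, was 12.21, 12.21 and 12.20 in SG-/- tumours against 12.65, 12.49 and 12.32 in SG+/- tumours. All SG-/- values lay under all SG+/- values and close together, and SG-/- minus SG+/- was -0.28, standard error 0.13 (limma adjusted p = 1.00). Jak1, a kinase that acts before STAT3, differed by -0.21 with a standard error of 0.13.

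In the list of NF-kB subunits, inhibitors and induced genes 10 of 18 were higher and 8 lower, with a median difference of 0.01. Tnfaip2, which is induced by tumour necrosis factor, was 7.63, 7.30 and 6.77 in the SG-/- tumours (replicates 1 to 3), against 6.70, 6.84 and 6.87 in the SG+/- tumours (replicates 1 to 3), so that SG-/- replicates 1 and 2 lay above all SG+/- tumours as they did for Tnf. Tnfaip2 differed by 0.43, standard error 0.22. Nfkbie, an inhibitor of NF-kB, differed by 0.25. Bcl3, an atypical member of the inhibitor family, was 8.91, 9.02 and 8.96 in SG-/- tumours against 9.54, 9.18 and 9.11 in SG+/- tumours. Its groups did not overlap, with a difference of -0.32 and a standard error of 0.15. Sod2, the mitochondrial superoxide dismutase, differed by -0.17.

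The other lists were small. In the tumour necrosis factor pathway 4 of 9 genes were higher and 5 lower, with Ltb, a membrane-bound relative of Tnf, at a difference of 0.23 and Tnfrsf1b at -0.45. Of 7 colony-stimulating factors and receptors, 6 were higher and 1 lower, with a median difference of 0.20, and Csf3r, the neutrophil growth factor receptor, differed by 0.22 with a standard error of 0.14. In the rest of the CXCR1 and CXCR2 axis 2 of 4 were higher and 2 lower, and Ackr1, a receptor that binds chemokines without signalling, differed by 0.19.

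**Figure D4:**
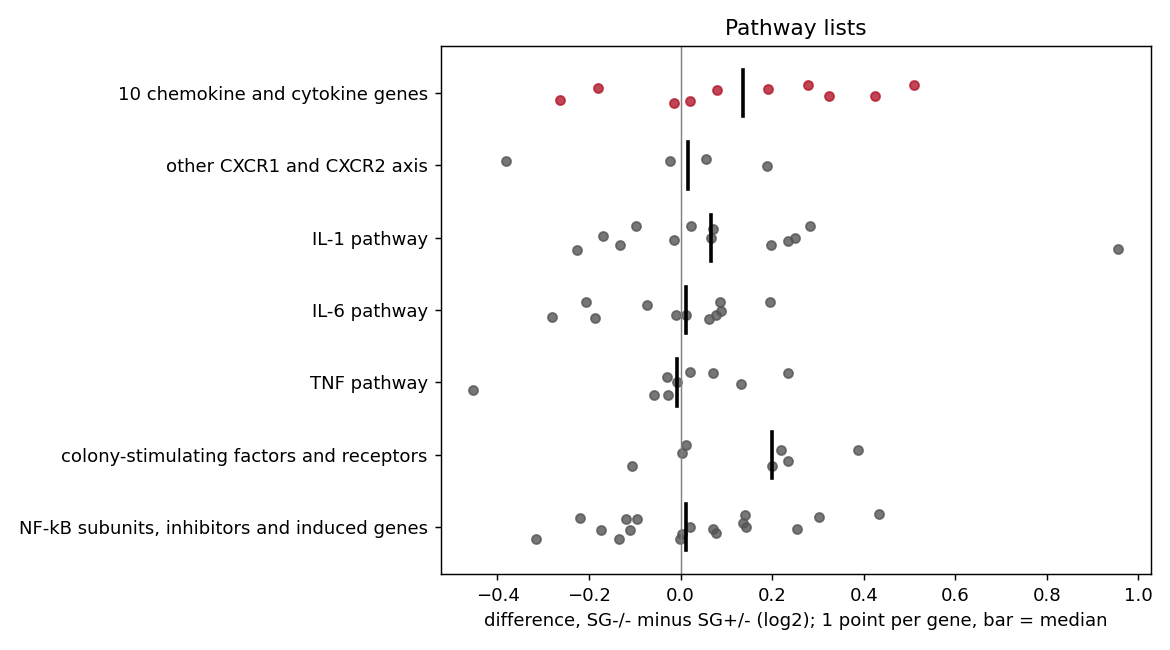
Difference of each gene (points), SG-/- minus SG+/- in log2 units, for the 10 chemokine and cytokine genes (red) and the 6 pathway lists (grey), with the median of each list as a bar. The median is 0.14 for the 10 genes and between -0.01 and 0.20 for the lists, and the point at 0.96 is Il33.

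The genes with the pattern most like a given member were found by the root-mean-square difference over the 6 arrays between values centred on their means, among 13518 named genes above the dim level. This was done for the 3 members above that level with the widest range. Il1b was closest to Cd48, a surface protein of leukocytes, at 0.06, Pcolce, which helps cut procollagen, at 0.07, and Clec11a, a secreted growth factor, at 0.08, where the median over the compared genes was 0.38. Tnf was closest to Mmp2, a gelatinase, at 0.05, and to Jcad and Palld, both of cell junctions or the actin skeleton, at 0.06 each, against a median of 0.35. Cxcl2 was closest to Olr1 at 0.05, Fthl17a at 0.05 and Syna at 0.06, against a median of 0.42. The named genes are the closest picked from 13518, so distances under the median are given by that selection. These are descriptions over 6 arrays, which share the array-wide differences in the receptor mean given above.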

How the data were processed

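RNA from 3 SG-/- and 3 SG+/- mammary tumours was measured on whole-transcript arrays, 1 per tumour. The authors deposited log2 values, 1 per probe set, made with RMA, per the labels' series text, a method that corrects background, normalizes by quantiles and summarises probes. Tools were RMA, limma and Affymetrix Expression Console per the submitters' processing notes, with no version. Of 33793 probe sets, 23521 had 1 gene symbol in the platform annotation, 1814 several, and 8458 were not listed there. Where a gene had several, the brightest probe set on average was kept, which left 22180 genes.

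The comparison used limma 3.58.1 (lmFit, eBayes; R 4.3.3); tests were two-sided and p-values were adjusted by Benjamini-Hochberg over all genes, with a threshold of 0.05. No label pairs the tumours, so they were treated as independent. Tissue numbers in the sample titles form a lower run (SG-/- replicates 1 and 2, SG+/- replicate 2) and a higher run with the rest. Genotype is thus unevenly spread over these runs, and the labels do not say what they mean. Among the members, only Tnf and Il1a had every lower-run tumour above every higher-run tumour, seen after the fact. The part of the runs in any difference was not tested. Each limma p-value sets the genotype difference against the spread between tumours of the same genotype, which eBayes moderates over all genes. The number of tumours limits the precision. Of 153 list genes, 141 matched a measured gene. The red blood cell list had no measured member.

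The members, the lists, the alternatives and the rule for naming genes were chosen with earlier results of these data known. The rule names Srgn, the members, their receptors, the first gene of each marker list and, in each pathway list, up to 2 genes per direction with the smallest limma p under 0.3. On simulated data with 22180 genes and independent noise, the test found 38 of 100 genes shifted by 1 log2 unit, 87 of 100 shifted by 2, and 12 that had no shift. The simulation left out the array-wide differences seen in the receptor mean. Its counts therefore check the code and do not give the power of the test in these data. Plots were drawn with matplotlib 3.10.9 (Python 3.11.15).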

Additional observations from a re-analysis of the deposited data

How the results depend on the processing

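No paired analysis was possible because the labels give each tumour tissue its own number and pair none. Alternatives were to leave out dim genes, to repeat quantile normalization, to centre arrays on their brighter genes, eBayes with trend and robust settings, array weights, the mean of all probe sets, the receptor mean as a covariate and leaving out each mouse. No member passed over all genes under any of them (smallest adjusted p = 0.207, Tnf with array weights). Those weights leaned on SG-/- replicate 2 (4.95, against 0.957 and 0.197 for SG-/- replicates 1 and 3). Of 127 member differences recomputed, 114 kept their direction, and Cxcl1, Il1a, Il1b, Tnf and Csf1 kept it in all 13 settings each. Some of these agreements carry no information. Leaving out dim genes and the trend and robust settings cannot change a difference, and the mean of all probe sets left every member as it was. With array weights Cxcl2 was -0.062 and Cxcr2 -0.076, and with the covariate Cxcl3 was 0.012. With a mouse left out, Cxcl2 ran from -0.070 to 0.36, Cxcl3 from -0.26 to 0.20, Cxcl5 from -0.35 to 0.072, Cxcr2 from -0.024 to 0.16 and Il6 from -0.059 to 0.17. The median of the members was then between -0.011 and 0.18, and 0.28 with dim genes left out, which leaves 7 members. Members without overlap numbered 1 to 4 with a mouse left out, a setting with fewer values to overlap. Over all genes 0 passed, and 469 did at an unadjusted p of 0.05. With the covariate 1 passed, Srgn (adjusted p = 0.0445). With a mouse left out 0 to 1 passed, the 1 being without SG-/- replicate 2, and of the list genes 0 to 1. The cause of these moves was not tested. Of 220 recomputed list medians, 210 stayed within 1 SD between replicates, but 27 changed sign, in 9 lists, among them salivary gland (-0.37) and B cell markers (-0.038) with array weights. The trend and robust settings cannot move a list median, so their agreement there is given in advance. Signal near the level of silent genes limits Cxcl3, Cxcl5 and Il6. It may also limit Il1a, Cxcl2 and Cxcl1, which lay little above the dim level, as 326 of the 1428 receptor genes lay above it. Having 3 arrays per genotype limits every difference.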
